A study of Mus musculus with 2 samples.

Results

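The Mir322 to Mir450b cluster is a group of 7 microRNA (miRNA) hairpin genes on the mouse X chromosome: Mir322, Mir503, Mir351, Mir542, Mir450-2, Mir450-1 and Mir450b. The members were given as a list of gene symbols and matched to the count tables by Ensembl gene identifier. All 7 had a row among the 1973 genes of the tables. The tissue was whole stomach of B6NCrl mouse embryos at embryonic day 16.5, with male and female embryos pooled and no treatment or engineered allele in the labels. The series held 1 group of 2 biological replicates, replicate 2 pooled from 41 embryos and replicate 1 from a number the labels do not give. Small RNA shorter than 30 nucleotides, per the size label, was sequenced and counted per hairpin gene.

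A miRNA hairpin is cut from a longer transcript, and an arm of it is then loaded as a mature miRNA into a silencing complex. The mature miRNA pairs with target messages through its seed, which is bases 2 to 8, so miRNAs with a shared seed have overlapping sets of targets. Mir322 and Mir503 are known for slowing the cell cycle, for example through the phosphatase gene Cdc25a, and for their induction when muscle precursors differentiate. Mir351 carries the seed of the miR-125 family, which acts in differentiation and growth control. miR-542-3p is known for targeting the survival gene Birc5 (survivin). Less is established about the miR-450 genes.

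On the minus strand of GRCm38, the assembly that mm10 names, the hairpins ran in the order Mir322 (chrX:53054255-53054349), Mir503 (chrX:53053984-53054054), Mir351 (chrX:53053255-53053353), Mir542 (chrX:53049403-53049487), Mir450-2 (chrX:53048299-53048367), Mir450-1 (chrX:53048154-53048244) and Mir450b (chrX:53047997-53048078). The cluster spanned 6353 bases, with 3767 bases between Mir351 and Mir542 and only 54 and 75 bases between the 3 miR-450 hairpins. Mir322, Mir503 and Mir351 lie inside the span that RefSeq gives the noncoding gene C430049B03Rik (chrX:53053112-53057190). The other 4 hairpins lie outside it. In GENCODE M21 the same gene ends before Mir322, and none of the 7 hairpins lies within another gene on its strand.

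The 3p arms of Mir322, Mir503 and Mir351 are also annotated but not shown here, and no other mature name in the RefSeq table has their seeds. The mature sequences below, from RefSeq (GRCm38.p6), are written 5′ to 3′ with the seed in capitals. They show which of these products share a seed with each other and with miRNAs from elsewhere in the genome.

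miR-322-5p: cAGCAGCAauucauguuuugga

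miR-503-5p: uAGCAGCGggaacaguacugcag

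miR-351-5p: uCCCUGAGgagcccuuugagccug

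miR-542-3p: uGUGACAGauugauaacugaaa

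miR-542-5p: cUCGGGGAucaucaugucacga

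miR-450a-5p: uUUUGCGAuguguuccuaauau

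miR-450b-5p: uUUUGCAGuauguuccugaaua

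miR-450a-1-3p: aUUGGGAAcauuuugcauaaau

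miR-450a-2-3p: aUUGGGGAugcuuugcauucau

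miR-450b-3p: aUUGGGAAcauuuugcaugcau

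The cluster thus carries several seeds and not a single family. The seed of miR-322-5p, AGCAGCA, is that of miR-15a-5p, miR-15b-5p, miR-16-5p, miR-195a-5p and miR-497a-5p. The seed of miR-503-5p, AGCAGCG, has the same bases 2 to 7, and base 8 is the first at which both seeds differ (A8G, counted from the 5′ end of miR-322-5p). Outside the seed, 5 of 15 positions aligned without gaps were equal. The seed of miR-351-5p, CCCUGAG, is that of miR-125a-5p and miR-125b-5p. Compared position by position without gaps, miR-351-5p and miR-125b-5p differed at 12 of 22 positions, and an alignment with gaps was not made. Both arms of Mir542 had seeds that no other member has. The seeds of miR-450a-5p, made from Mir450-1 as well as Mir450-2, and of miR-450b-5p belong to no other mature name in the RefSeq table. Of the 3p arms, miR-450a-1-3p and miR-450b-3p shared the seed UUGGGAA and differed at 2 of 22 positions (A19G and A20C, counted from the 5′ end of miR-450a-1-3p).

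For comparison, relatives of miR-322-5p and miR-351-5p from elsewhere in the genome have these sequences, again with the seed in capitals.

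miR-15a-5p: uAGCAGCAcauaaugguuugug

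miR-16-5p: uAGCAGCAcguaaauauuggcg

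miR-195a-5p: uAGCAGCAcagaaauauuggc

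miR-497a-5p: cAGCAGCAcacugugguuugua

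miR-15b-5p: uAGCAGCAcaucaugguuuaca

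miR-125a-5p: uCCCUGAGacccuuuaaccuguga

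miR-125b-5p: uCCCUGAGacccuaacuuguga

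Mir450-1 and Mir450-2 raise a limit of measurement that bears on their levels. Their hairpins, from RefSeq, are shown with the longest stretch common to both in capitals.

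Mir450-1: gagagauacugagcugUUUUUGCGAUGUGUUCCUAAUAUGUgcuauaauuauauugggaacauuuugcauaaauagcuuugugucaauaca

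Mir450-2: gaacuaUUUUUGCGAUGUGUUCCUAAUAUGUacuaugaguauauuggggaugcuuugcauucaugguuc

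The common stretch of 25 bases holds the whole of miR-450a-5p, so a read of that mature miRNA matches both hairpins. The tables give reads placed in several positions as a separate total, 25.1% of replicate 1 and 25.2% of replicate 2 over all reads. From this layout it is inferred that such reads enter no gene's count. The counts of Mir450-1 and Mir450-2 therefore come from reads that tell the hairpins apart, such as those of the 3p arms, and are a lower limit on what each produced. The other 5 members share no stretch of 20 bases with another annotated miRNA hairpin. The longest such stretch was 19 bases, between Mir450b and Mir450-1. A gene named below may also lack reads where its hairpin shares 20 bases with another. Among these are Mir23a, Mir23b, Mirlet7f-2, Mir92-2, Mir19b-1 and Mir19b-2, so ranks and shares are of counted reads.

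Sense reads at miRNA genes came to 7734578 in replicate 1 and 7983714 in replicate 2, and levels are given as counts-per-million (CPM) of these. The floor of 3 counts equals 0.388 and 0.376 CPM in the same order. Smooth muscle (Mir143, Mir145a) and all 12 listed epithelial miRNA genes reached 10 CPM in both libraries. Their levels were not all even: in replicates 1 and 2 Mir145a stood at 5317 and 2540 CPM. Of the epithelial genes, Mir203 was the most uneven at 17200 and 27343 CPM, while Mir200b went the other way at 10804 and 7980 CPM. The 12 had a median log2 ratio of replicate 1 over replicate 2 of -0.17 with the scaling used for ratios below. At the 2-fold threshold given below, 0 of them passed, against 7.96% of all genes tested. Mir143 stood at 196767 and 194858 CPM. Some markers of other tissues differed between the libraries as well. The liver marker Mir122 stood at 1821 and 1210 CPM. The striated muscle list summed to 3363 CPM in replicate 1 but only 205 CPM in the other library, with Mir133a-1 and Mir133a-2, copies that share a 20-base stretch, at 0. Mir206 alone supplied 3184 and 99.8 CPM of these sums. Mir499 at 38.4 and 6.76 CPM and Mir133b at 24.95 and 2.51 CPM were also higher in replicate 1. Of the 4 muscle genes tested, these 3 passed the 2-fold threshold in that direction, against 7.27% of all genes tested. Mir208b, the other gene tested, stood at 110.0 and 89.2 CPM, and Mir1b at 1.03 and 2.76 CPM. The blood list summed to 1240.0 and 591 CPM, and the gap came from Mir451a at 1086 and 418 CPM. Mir144 stood at 139 and 159 CPM and Mir486 at 15.8 and 13.3 CPM. Mir322 and Mir503 are also genes of muscle precursors, so these values stand beside the members' ratios below.

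The cluster as a whole held about the same share of the profile in both libraries. It had 189029 reads in replicate 1 and 202754 in replicate 2, which is 24439 and 25396 CPM. Its share of the sense-assigned reads was 2.44% in replicate 1 (2.43% to 2.45%, the exact Clopper-Pearson 95% interval) and 2.54% in replicate 2 (2.53% to 2.55%), a mean of 2.49% ± 0.0676 (SD, n = 2). Both shares lie close together, though apart by more than counting error, which is all that such intervals cover. With the scaling used for ratios below (TMM), the sum was 1.18-fold higher in replicate 2, a log2 ratio of replicate 1 over replicate 2 of -0.24 (-0.25 to -0.23). None of the 7 hairpins had a read on the opposite strand in either library, so counting without regard to strand left their reads as they were. In whole tissue, fewer cells of a type and less RNA per cell cannot be told apart.

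All 7 members reached 10 CPM in both libraries, but their levels were far from equal. Mir322, the miR-15/16 relative at the 5′ end, led the cluster with 134689 and 152242 reads in replicates 1 and 2. That is 17414 and 19069 CPM, a mean of 18241.5 ± 1170.4 CPM (SD, n = 2), and rank 13 among all genes. Replicate 2 was the higher library for Mir322.

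Mir351, which carries the miR-125 seed, followed with 40492 and 36170 reads. It stood at 5235 and 4530.5 CPM (mean 4883 ± 498, SD, n = 2), rank 37. Unlike Mir322, it had more reads in replicate 1. In each library Mir322 stood above Mir351 by far more than the SD of either gene.

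Mir542 and Mir503 formed the middle of the order. Mir542 had 6523 and 6167 reads, or 843 and 772 CPM (mean 808 ± 50.1, SD, n = 2), rank 106. Mir503, the neighbour of Mir322, had 5304 and 6360 reads, or 686 and 797 CPM (mean 741 ± 78.4, SD, n = 2), rank 108. Mir542 was the higher of the pair in replicate 1 and Mir503 in replicate 2, and the means differ by less than the SD of Mir503, so these 2 levels overlap and their order is not settled.

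The miR-450 hairpins at the 3′ end were the lowest. Mir450b had 1713 and 1504 reads, or 221 and 188 CPM (mean 205 ± 23.4, SD, n = 2), rank 161. Mir450-1 had 227 and 204 reads, or 29.3 and 25.6 CPM (mean 27.5 ± 2.68), rank 250. Mir450-2 had 81 and 107 reads, or 10.5 and 13.4 CPM (mean 11.9 ± 2.07), rank 281. The ranges of these 3 genes over the libraries did not overlap, and both libraries gave the order Mir450b, Mir450-1, Mir450-2, but for Mir450-1 and Mir450-2 the reads of the shared 5p arm are missing. Mir450b has no identical copy among the annotated hairpins, and it still stood below Mir542 in both libraries. Its count may lack some reads too, since reads of miR-450b-3p that end before base 19 would also match Mir450-1.

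**Figure D1:**
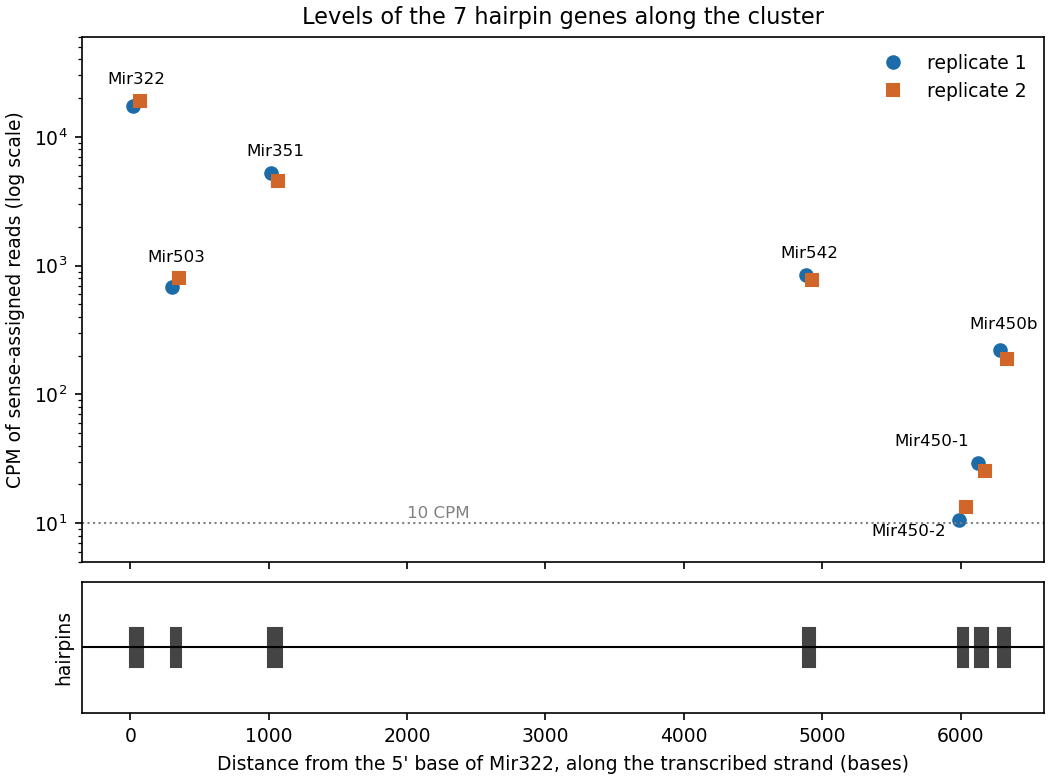
CPM of sense-assigned reads (log scale) of the 7 hairpin genes against the distance in bases from the 5′ base of Mir322, with circles for replicate 1 and squares for replicate 2 set slightly apart for sight; the boxes underneath mark the hairpins to scale. Mir322 and Mir351 stand above 1000 CPM in both libraries, Mir503 between them in position lies near Mir542 in level, and Mir450-1 and Mir450-2, whose 5p arm cannot be placed uniquely, lie lowest.

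Level did not simply follow position along the transcript. Mir503 lies between Mir322 and Mir351 and was 25.4-fold lower than Mir322 in replicate 1 and 23.9-fold lower in replicate 2 by reads. It was also below Mir351, which lies farther from the 5′ end. Mir450b, the last hairpin, exceeded both hairpins just before it, with the limit on those given above. The 3 hairpins within the RefSeq span of C430049B03Rik held 95.5% and 96.1% of the cluster's reads in replicates 1 and 2.

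A small RNA read covers most of a mature miRNA, so a count does not grow with the hairpin it came from, and levels were compared without division by length. Hairpins ranged from 69 to 99 bases. Per 100 bases of hairpin the means were 19202 CPM for Mir322, 4932 for Mir351, 1044 for Mir503, 950.5 for Mir542, 250 for Mir450b, 30.2 for Mir450-1 and 17.3 for Mir450-2. Division by length thus changed the order of Mir503 and Mir542 alone, the pair whose order was not settled. The SD over 2 libraries covers no bias between mature sequences that both libraries would share.

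The hairpins fall into a GC-rich and a GC-poor set. GC content was 51.6% in Mir322, 54.9% in Mir503, 50.5% in Mir351 and 51.8% in Mir542. It was 36.2% in Mir450-2, 33.0% in Mir450-1 and 30.5% in Mir450b. The 3 hairpins of low GC content were also the 3 lowest by count; whether base composition has a part in that was not tested. The lowest predicted folding energy, by RNAfold on the GENCODE hairpins, was -42.9 kcal per mol for Mir322, against -26.5 for Mir450-2. The other energies were -37.3 for Mir351, -38.1 for Mir542, -37.6 for Mir503, -31.8 for Mir450b and -41.0 for Mir450-1, whose count is a lower limit. A part of folding in the levels was not tested.

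Within the cluster, Mir322 held 71.3% of the reads in replicate 1 (71.0% to 71.5%, exact 95% interval of Clopper and Pearson) and 75.1% in replicate 2 (74.9% to 75.3%). Mir351 held 21.4% in replicate 1 (21.2% to 21.6%) and 17.8% in replicate 2 (17.67% to 18.01%). Together they made up 92.8% ± 0.178 (SD, n = 2), and the division between them is where the libraries differed most in share of reads. Mir542 held 3.25% ± 0.289, Mir503 2.97% ± 0.234, Mir450b 0.824% ± 0.116, and Mir450-1 and Mir450-2 0.158% between them.

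The proportion of Mir322 to Mir351 differed between the libraries. There were 3.33 Mir322 reads per Mir351 read in replicate 1 (95% interval 3.29 to 3.36) and 4.21 in replicate 2 (4.16 to 4.26), intervals from the exact binomial. The proportion of Mir351 to Mir450b hardly moved, with 23.6 reads per read in replicate 1 (22.5 to 24.8) and 24.0 in replicate 2 (22.8 to 25.3). Mir322 to Mir503 moved less than Mir322 to Mir351, at 25.4 (24.7 to 26.1) and 23.9 (23.3 to 24.5), though these intervals do not quite overlap. In unscaled reads, Mir322, Mir503 and Mir450-2 had more in replicate 2, and the other 4 members more in replicate 1.

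Ratios between the libraries were then set against those of every gene with a mean CPM of at least 10. Scaling was by the trimmed mean of M values (TMM), and both counts of a gene were compared by a two-sided exact binomial test with Benjamini-Hochberg adjustment over 289 genes. The test compares these 2 libraries and not conditions, and it carries no spread among animals. At an adjusted p under 0.05 and at least 2-fold, 0 of the 7 members differed, against 7.96% of all genes tested (7.27% higher in replicate 1 and 0.692% higher in replicate 2). All 7 members lay within 1.5-fold, as did 231 of the 289 genes. With no minimum fold, 5 of the 7 members passed the adjusted threshold, against 76.1% of all genes, and the same number had an unadjusted p under 0.05. Of the 5, 1 was higher in replicate 1 (38.4% of all genes) and 4 in replicate 2 (37.7% of all genes). The 4 include Mir542, whose sign depends on the scaling, as given below. At that depth the test picks out very small differences, so this share says little about the members.

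Mir503 had a log2 ratio of replicate 1 over replicate 2 of -0.40 (95% interval -0.45 to -0.35, exact binomial adjusted p = 1.87e-49). Its neighbour Mir322 had a log2 ratio of -0.31 (-0.32 to -0.30), with an adjusted p by the same exact test that the arithmetic listed as 0. Scaling by total assigned reads brought Mir503 to -0.22 and Mir322 to -0.13. With either scaling both genes were higher in replicate 2, the library with fewer striated muscle reads. The part of that muscle signal, or of other cells in the pools, in the members' ratios was not tested.

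With TMM scaling Mir351 was nearly even at a log2 ratio of 0.03 (0.01 to 0.05, exact binomial adjusted p = 0.0157), and with DESeq2 size factors its adjusted p was 0.151. Scaling by total assigned reads gave it a log2 ratio of 0.21 (exact binomial adjusted p = 3.23e-88), a scaling that moved the median of all genes from 0.02 to 0.21. Mir542 stood at -0.06 (-0.11 to -0.01, exact binomial adjusted p = 0.0410). Scaling by total assigned reads turned Mir542 to 0.13, and TMM over all rows gave an adjusted p of 0.580, so no direction is given for it. Mir450b at 0.05 (-0.05 to 0.15) and Mir450-1 at 0.02 (-0.26 to 0.30) had intervals that span 0. With total assigned reads Mir450b stood at 0.23 (exact binomial adjusted p = 7.86e-06) and Mir450-1 at 0.20 (adjusted p = 0.186).

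Mir450-2 had the largest ratio of the 7 in size, -0.54, on 81 and 107 reads. Its interval of -0.97 to -0.11 is the widest as well, and its exact binomial adjusted p of 0.0175 became 0.110 with scaling by total assigned reads. With TMM scaling, the median log2 ratio over the 7 members was -0.06, beside 0.02 over all genes tested. The median size without sign was 0.06, beside 0.24. With scaling by total assigned reads, member ratios ran in size from 0.13 for Mir542 to -0.35 for Mir450-2, so that median size depends on the scaling.

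**Figure D2:**
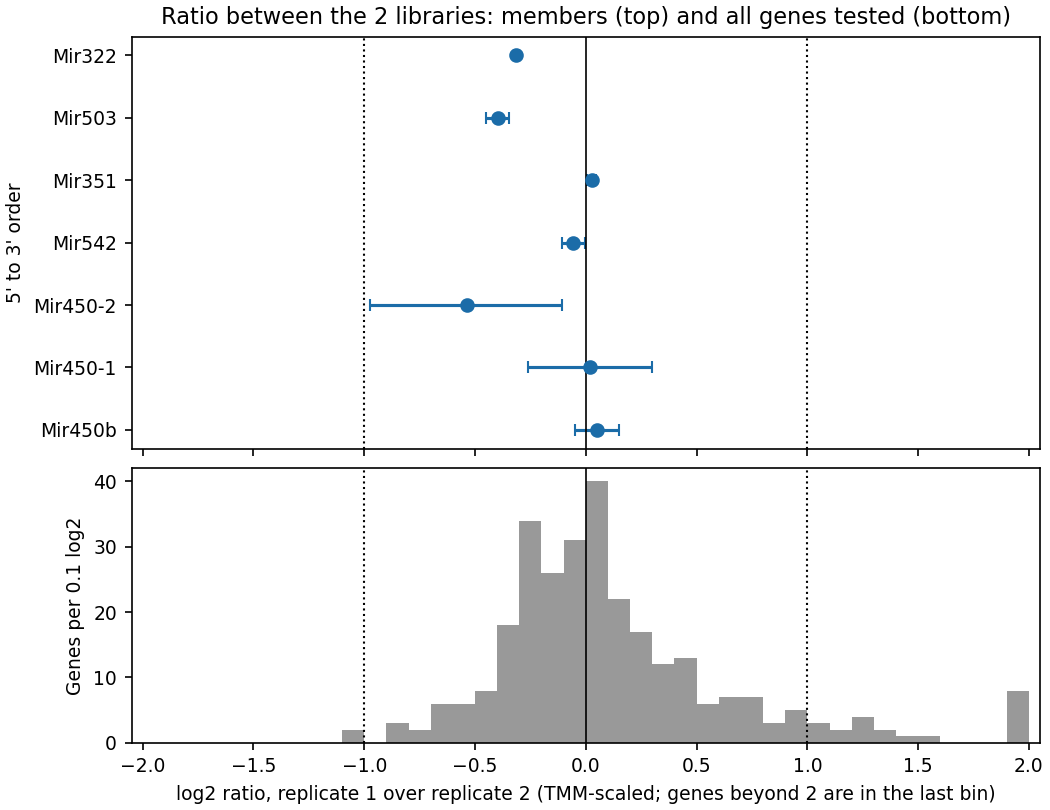
Top: log2 ratio of replicate 1 over replicate 2 (TMM-scaled) of each member in 5′ to 3′ order, with bars for the exact 95% interval of counting error, which is narrower than the point for Mir322 and Mir351. Bottom: the same ratio over the 289 genes tested, in bins of 0.1, with dotted lines at 2-fold; all 7 members lie inside those lines, and the intervals of Mir322, Mir503 and Mir450-2 lie farthest to the left of 0.

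The cluster is X-linked, and both libraries pool male and female embryos in proportions the labels do not give. Its 7 genes held 47.7% of the X-linked miRNA reads of replicate 1 and 48.3% of those of replicate 2. The other X-linked genes tested, 26 in number, had a median log2 ratio of 0.02, between -0.70 and 0.74, and the 256 autosomal genes a median of 0.03. None of the 26 passed the 2-fold threshold, against 7.96% of all genes tested. After Mir322, the X-linked genes with the most reads were Mir98 at 8074 ± 453 CPM and Mir652 at 7470 ± 324 CPM (SD, n = 2). By counted reads, Mir322 stood above every other X-linked miRNA gene in the tables. Mirlet7f-2, at 2826 ± 41.6 CPM (SD, n = 2), shares a 20-base stretch with Mirlet7f-1, so its count may lack reads that match both.

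Mir322 was next compared with the genes that carry its seed. Mir15a stood at 1917 ± 16.9 CPM (SD, n = 2), Mir16-1 at 1022 ± 149 CPM, Mir195a at 638 ± 25.1 CPM, Mir15b at 532 ± 217 CPM and Mir16-2 at 212 ± 42.8 CPM. Each was below Mir322 in both libraries by counted reads. Mir497 has no row of its own, but reads opposite to Mir497b, where Mir497 lies, came to 5007 and 5585, or 673 ± 36.9 CPM. The genes Mir6342, Mir6353 and Mir6419, whose annotated products share the seed, had 0 reads in both libraries, and Mir195b had a single read in all.

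Of the 10 genes with a row and the seed AGCAGCA, 7 had a read, and Mir322 supplied 80.3% of their reads in replicate 1 and 81.4% in replicate 2. With the reads opposite to Mir497b added, its share was 78.0% and 79.0%. Mir16-1 and Mir16-2 make the same miR-16-5p, and reads that match both are not in these sums. The share of Mir322 is one of counted reads, and on that account an upper value for all reads of these genes. Counts join both arms of a hairpin, so they include any reads from the arm with another seed. The share is therefore one of genes, and the part of reads that carry the seed AGCAGCA could not be told. Mir503, whose seed differs at base 8, stood above Mir195a in both libraries, with means of 741 ± 78.4 against 638 ± 25.1 CPM (SD, n = 2). In replicate 1 the gap between them was smaller than the SD of Mir503.

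Of the 7 genes tested in the list of miR-15/16, miR-195, miR-497, Mir322 and Mir503, 1 passed the 2-fold threshold. This was Mir15b, with 2925 reads in replicate 1 and 5470 in replicate 2, at a log2 ratio of -1.04. It missed 2-fold with TMM over all rows (-0.9998) and with scaling by total assigned reads (-0.86). In that direction 0.692% of all genes passed. The median log2 ratio of the list was -0.26, beside 0.02 over all genes. In a separate list of cell cycle miRNA genes, 20 were tested. It holds the miR-15/16, miR-195, miR-497, miR-17-92, miR-106b-25, miR-106a-363 and miR-34 genes, and neither Mir322 nor Mir503. In this list 0 were higher in replicate 1 at the threshold, against 7.27% of all genes. In replicate 2, 1 was higher, again Mir15b, against 0.692% of all genes.

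Mir351 had rivals for its seed. Mir125a stood at 6189 CPM in replicate 1 and 2936 CPM in replicate 2, on either side of Mir351 at 5235 and 4530.5 CPM. The mean of 4563 ± 2300.3 CPM for Mir125a overlaps that of Mir351, so their order is not settled. Mir125b-2 at 671 ± 26.8 CPM and Mir125b-1 at 513 ± 58.7 CPM (SD, n = 2) were lower, but they make the same miR-125b-5p and lack the reads that match both. Of counted reads at these 4 genes, Mir351 held 41.3% in replicate 1 (41.0% to 41.6%, by Clopper and Pearson) and 52.7% in replicate 2 (52.4% to 53.1%). Here too the arms are counted together, so these are shares of genes and not of reads with the shared seed. Mir125a, more than Mir351, changed between the libraries, with 47873 and 23443 reads, and had a log2 ratio of 0.89, short of 2-fold with TMM scaling but past it at 1.08 with scaling by total assigned reads.

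**Figure D3:**
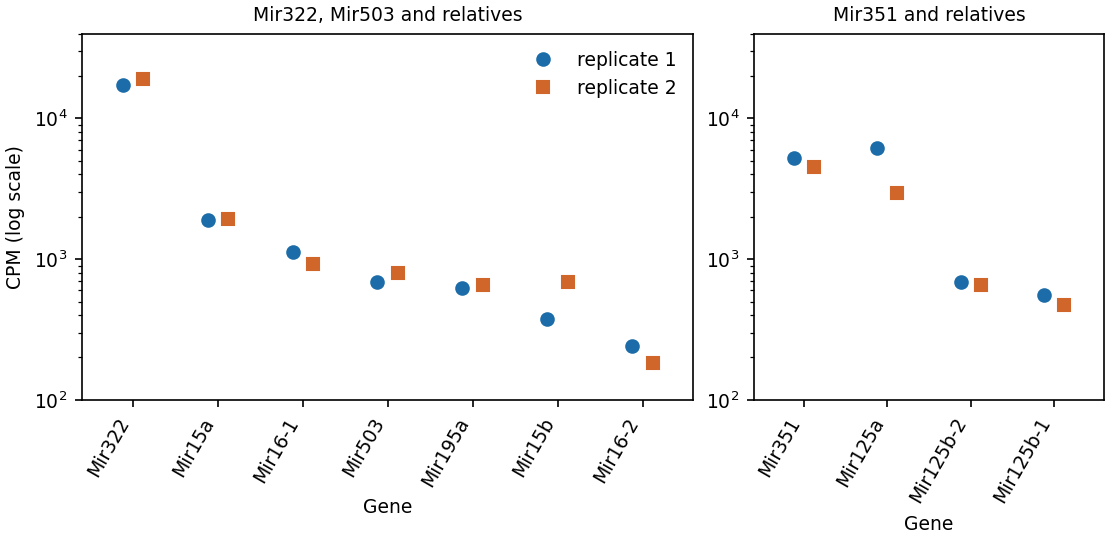
CPM (log scale) of the genes at 1 CPM or more in each list of seed relatives, circles for replicate 1 and squares for replicate 2. Left: Mir322 stands above its relatives in both libraries by counted reads, and Mir503 lies among them. Right: Mir125a lies above Mir351 in replicate 1 and below it in replicate 2. Mir16-1 and Mir16-2, like Mir125b-1 and Mir125b-2, lack the reads that match both genes of the pair.

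The genes nearest to the 2 leading members in level, by Euclidean distance of log2(CPM + 1) over the 2 libraries, lay on other chromosomes. For Mir322 they were Mir23a (distance 0.28, 18097 ± 4584 CPM), Mir21a (0.37, 15325 ± 113 CPM) and Mir23b (0.41, 21588 ± 5120 CPM; SD, n = 2). Mir322 and Mir23a differ by less than the SD of either. For Mir351 they were Mir30a (distance 0.12), Mir106b (0.20) and Mir379 (0.23). With 2 libraries this distance reflects level above all and says nothing of shared control.

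The last comparison set the spread of levels within the cluster beside other clusters, taken as 3 or more annotated miRNA genes on a strand with neighbours within 10000 bases. Only genes tested, at a mean of 10 CPM or higher, entered these ranges. The highest member stood 1528-fold above the lowest, Mir322 over Mir450-2, a log2 range of 10.58. No other cluster had a wider one: among the 11 others with at least 3 genes tested, log2 ranges ran from 1.09 to 8.96 with a median of 4.11. Over all genes with a row, with the lowest gene set to at least the floor of 3 counts per library, 4 of these 11 were wider than the 1528-fold of the Mir322 cluster. The order also changed once genes that share a 20-base stretch with another hairpin were left out of every cluster. The range from Mir322 to Mir450b was then 6.48 (89.0-fold), and 3 of the 8 other clusters that could still be compared were wider. No test was made, since the genes of a cluster are not replicates.

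**Figure D4:**
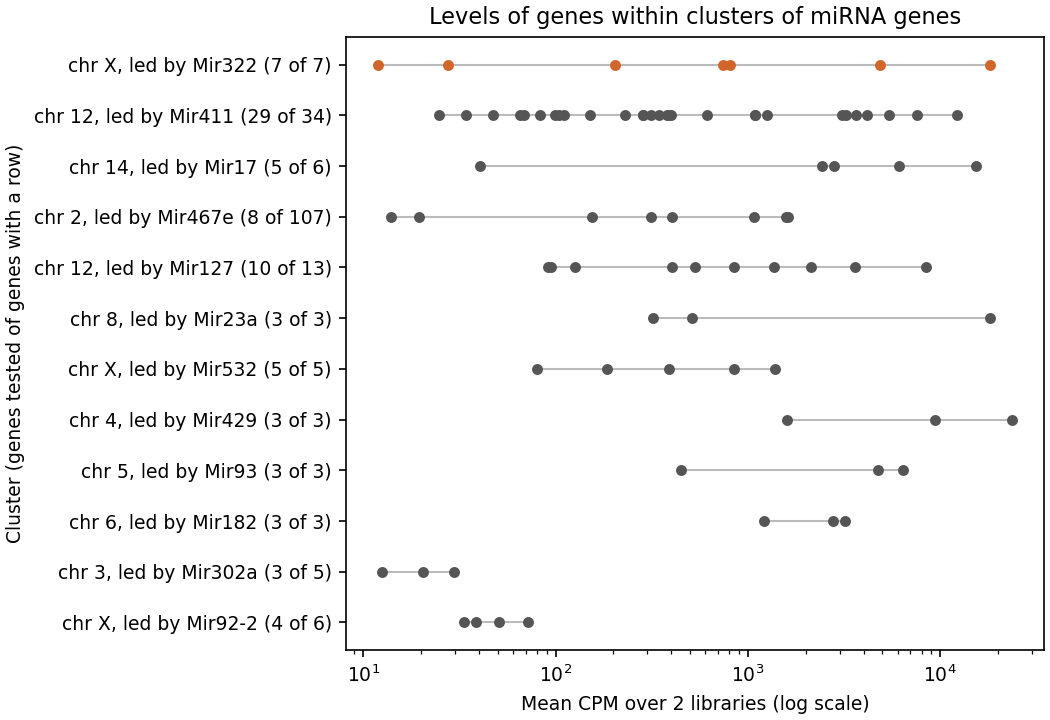
Mean CPM over 2 libraries (log scale) of each gene tested in the 12 clusters with at least 3 genes tested, ordered by range, with the Mir322 cluster in orange and the number of genes tested of those with a row in brackets. Among genes tested, the Mir322 cluster spans the widest range when Mir450-1 and Mir450-2 are included, the 2 points at its low end.

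Of the clusters closest in size, the miR-290 cluster on chromosome 7 also has 7 genes with a row, and none reached a mean of 10 CPM; its highest was Mir293 at 5.03 CPM. With 6 genes each, the miR-17-92 cluster on chromosome 14 ran from Mir17 at 15359 CPM to Mir19b-1 at 6.97 CPM, and the X-linked Mir106a cluster from Mir92-2 at 71.5 CPM to Mir19b-2 at 4.02 CPM. A cluster of miR-344 genes, also with 6, had its highest gene, Gm23873, at 2.86 CPM and Mir344d-3 at 0. Every gene with a row reached a mean of 10 CPM in the Mir322 cluster, as it did in 5 of the 11 other clusters with at least 3 genes tested, which are smaller at 3 to 5 genes.

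Ratios between libraries were no more uniform within the cluster than within others. The SD of the log2 ratio over the 7 members was 0.24, beside a median of 0.19 over the 11 other clusters, of which 4 had a larger SD, and 0.64 over all genes tested.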

How the data were processed

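The authors deposited raw read counts per hairpin gene for each library, with 4 summary totals that name no gene. Alignment was to mm10 and counting on GENCODE M4, per the file headers. The aligner, the counter and any trimming: not given in the sources used here. Mature arms are not told apart. Unmapped reads were 21.3% and 20.3%, and reads outside counted genes 2.81% and 3.11%; these totals and the multiply placed reads were left out of library sizes. Nothing in the labels says that the pools shared no litter, so p-values measure only the difference between these libraries.

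Sense counts were turned into CPM (sense reads are 49.1% and 50.0% of all reads). Symbols came from GENCODE M21 (1894 of 1973 identifiers matched). TMM factors came from edgeR 4.0.16 (R 4.3.3) over genes with a mean CPM of at least 10, with 0.5 added to counts in ratios, and DESeq2 1.42.0 gave alternative size factors. No edgeR test was possible with 1 group, so exact binomial tests (scipy 1.17.1) were used, after they were tested on simulated data. The simulated counts varied by Poisson counting error alone, so that check cannot show how the tests behave with spread between libraries. Hairpins were folded with RNAfold 2.7.2. Computation used Python 3.11.15, pandas 2.3.3 and numpy 2.4.6. Clopper-Pearson and Poisson intervals cover counting error only. No molecular identifiers are recorded, so these intervals treat every read as an independent count.

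Members and lists were chosen with earlier results of these data known. Named besides the members were genes in the lists of seed relatives and the clusters closest in size (those tied in size all named). The 3 genes nearest in level to each of the 2 highest members were named as well. Mir98, Mir652, Mirlet7f-2, Mir203, Mir200b, Mir122, Mir206, Mir208b, Mir499, Mir133b, Mir1b, Mir451a, Mir144 and Mir486 were chosen after values were seen. So were Mir6342, Mir6353 and Mir6419, and the reads opposite to Mir497b. The mature sequences of all 7 members were matched in RefSeq by symbol.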

Additional observations from a re-analysis of the deposited data

How the results depend on the processing

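The count of 0 members at least 2-fold apart held under TMM, DESeq2 and total-read scaling, both strands, a mean of 1 CPM, no filter and a 1.5-fold minimum; with no minimum fold it was 5. The count over all genes, 23 with the main settings, was 49 with a mean of 1 CPM, 55 with no filter, 58 with a minimum of 1.5-fold and 220 with none; the added filters test more genes. TMM over all rows was an alternative chosen after seeing the data. Total-read scaling moved the median log2 ratio of all genes from 0.02 to 0.21 and turned Mir542 from -0.06 to 0.13; of 70 ratios of members under all alternatives, 64 kept direction and side of the threshold, 5 passed only for want of a minimum fold, and 1, Mir542, reversed. The cluster's level of 24918 CPM became 12355 CPM of all reads and 24150.1 CPM when counted without regard to strand, settings in which only the denominator grew. With Mir450-1 and Mir450-2 left out the log2 range of levels fell from 10.58 to 6.48, and in single libraries it was 10.47 to 10.70. Mir322 held 71.3% to 75.1% of the cluster in single libraries. No paired analysis was possible because the series has only 1 group. Depth limits Mir450-2, at 81 and 107 reads, and Mir450-1; for these, reads of the shared arm are missing as well.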
